A study of Homo sapiens with 12 samples.

Results

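The galectin genes LGALS1, LGALS3, LGALS4, LGALS8 and LGALS9, with LGALS3BP, which encodes a secreted galectin-binding glycoprotein, were followed in 12 RNA sequencing libraries of 2 prostate cancer cell lines. They are 6 of the 60106 genes in the deposited count tables and were found there by symbol. They were selected on the siFOXA1 against NSI differences of both lines, LGALS9 for its difference in PC3, so those differences are given here as descriptions, without a test. PC3 (from a bone metastasis) and VCaP (from a vertebral metastasis) are established human lines, each a single line standing for its kind of tumour. Each line was transfected with RNAiMax and either a non-targeting siRNA (NSI) or siRNA against FOXA1, a forkhead transcription factor (siFOXA1), with 3 libraries per group and RNA taken after 72 hours. PC3 received 20 nM siRNA in RPMI-1640 and its libraries were made with the TruSeq stranded mRNA kit. For VCaP the dose was 40 nM in DMEM, and its libraries came from the TruSeq total RNA kit. The siRNA sequence and the number of different siRNAs were not given in the sources used here, and the labels do not say whether the replicates were separate cultures, so p-values measure the spread between these libraries, which may be technical.

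Galectins are small lectins that bind glycans ending in β-galactose through a conserved carbohydrate-recognition domain. They are made in the cytosol, leave the cell without a signal peptide, and cross-link glycoproteins at the cell surface. Inside the cell they bind glycans exposed on damaged vesicles. LGALS1 encodes a prototype galectin that works as a dimer, LGALS3 the chimera type with a long N-terminal tail, and LGALS4, LGALS8 and LGALS9 tandem-repeat galectins with a pair of different binding domains on a single chain. How well they bind depends on the branching enzymes that build galactose-bearing antennae and on the sialic acid and fucose that cap them.

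The libraries held 123140099 to 188226483 counts in PC3 and 48187047 to 59839211 in VCaP. FOXA1 was lower in every siFOXA1 library. In PC3 it stood at 301, 242 and 263 CPM (normalised counts scaled to a common library size) in NSI and at 168, 183 and 167 CPM in siFOXA1, which left 64.2% of the NSI mean (log2 fold change −0.65, SE 0.099, edgeR adjusted p = 0.00222). In VCaP it stood at 448, 458 and 539 CPM in NSI, against 85.8, 73.7 and 83.5 CPM in siFOXA1, which left 16.8% (log2 fold change −2.60, SE 0.095, edgeR adjusted p = 1.84e-07). The remaining share of FOXA1 thus differed between the lines (VCaP minus PC3 −1.93, edgeR adjusted p = 3.12e-07). The luminal prostate marker KLK3 was at 0.00713 CPM in PC3 NSI and 68.2 CPM in VCaP NSI. The 4 epithelial markers KRT8, KRT18, EPCAM and CDH1 summed to 406 to 503 CPM in PC3 NSI and 717 to 763 CPM in VCaP NSI, with KRT18 the only one of them at a higher mean in PC3 (273 against 123 CPM).

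Of the 6 genes, LGALS9 and LGALS3BP had the largest differences between siFOXA1 and NSI in PC3, and the sequences before their start sites are shown because each holds a copy of the same motif. They are from RefSeq on GRCh38.p14, a newer build than that of the counts, and run 5′ to 3′ on the gene's strand from 250 bases before the start site to 10 bases after it. LGALS9 is taken from chr17:27630938-27631197 on the plus strand and LGALS3BP from chr17:78979914-78980173 on the minus strand. Capitals mark the core of the interferon-stimulated response element, 2 copies of GAAA set 2 bases apart, on either strand.
LGALS9: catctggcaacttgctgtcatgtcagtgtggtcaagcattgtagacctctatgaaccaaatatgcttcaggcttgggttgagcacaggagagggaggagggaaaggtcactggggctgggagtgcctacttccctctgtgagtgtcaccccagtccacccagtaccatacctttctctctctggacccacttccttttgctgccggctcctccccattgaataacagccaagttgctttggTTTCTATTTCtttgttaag
LGALS3BP: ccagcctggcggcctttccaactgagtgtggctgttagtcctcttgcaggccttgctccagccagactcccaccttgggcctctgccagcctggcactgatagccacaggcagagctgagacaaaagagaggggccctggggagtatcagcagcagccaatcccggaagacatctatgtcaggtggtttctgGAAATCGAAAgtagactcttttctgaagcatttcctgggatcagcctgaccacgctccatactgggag
In LGALS3BP the match is on the gene's own strand and starts at position −58. In LGALS9 it is on the other strand, so it reads as its reverse complement above, and starts at position −9. The motif was searched on both strands of 300 bases per promoter, and 3.57% of 35116 promoters hold it. Neither window holds the gamma-activated site TTCNNNGAA (7.66% of promoters) or the forkhead cores TGTTTAC (3.42%) and TGTTTGC (3.89%), which says only that these letters are not in these windows. Promoters were matched for 5 of the 6 genes, all but LGALS1, and those of LGALS3, LGALS4 and LGALS8 (3 start sites) hold none of the 4 motifs. A match is a description of letters and not a measured binding site.

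LGALS9 encodes galectin-9, a ligand of the T cell receptor protein TIM-3, and is known as an interferon-responsive gene in other cells. On GRCh37 it lies on chromosome 17, 25956824 to 25976586, plus strand (ENSG00000168961.16_5). In PC3 NSI its level was 0.504, 0.478 and 0.423 CPM, from 75, 67 and 78 counts. In PC3 siFOXA1 it was 13.7, 15.8 and 15.1 CPM, from 2238, 1978 and 2540 counts. All 3 siFOXA1 libraries were far above the 3 NSI libraries, with 0.468 ± 0.0416 CPM against 14.9 ± 1.05 CPM (SD, n = 3). The fitted log2 fold change was 4.98 (SE 0.14), and the ratio of normalised counts was 31.8 (95% interval 27.8 to 36.6, covering counting error only). In VCaP the gene had 2, 1 and 1 counts in NSI and 0, 2 and 2 counts in siFOXA1. Both VCaP groups were at or under a floor of 3 counts per library, so no fold change was given and a difference was not detectable at this depth.

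LGALS9 has close copies and an overlapping gene, which bear on its count because reads that fit several places were split among them. LGALS9B had at most 5 counts and LGALS9C at most 8 counts in any library. That is little beside LGALS9 in PC3 but not in VCaP. Summed over the VCaP siFOXA1 libraries, LGALS9B had 8 and LGALS9C 19 counts, against 4 for LGALS9. In VCaP NSI the sums were 1 and 6, against 4 for LGALS9. How reads were divided between LGALS9 and these copies was not tested. The overlapping gene AC015688.3 shares 9.44% of the LGALS9 exon length on the same strand and was also higher in PC3 siFOXA1, at 0.343 ± 0.0735 CPM against 2.46 ± 0.258 CPM (log2 fold change 2.82, SE 0.19, edgeR adjusted p = 2.98e-05). How reads were divided between LGALS9 and this gene was not tested. HAVCR2, which encodes TIM-3, was at 0.0745 CPM in PC3 NSI and 0.113 CPM in PC3 siFOXA1 (log2 fold change 0.59, edgeR adjusted p = 0.414) and was under the filter on low counts in VCaP.

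LGALS3BP encodes a heavily glycosylated secreted protein that binds galectin-3 and galectin-1 and is also known to respond to interferon. It lies on chromosome 17, 76967320 to 76976191, minus strand (ENSG00000108679.12_3). In PC3 NSI it was at 303, 344 and 333 CPM, and in PC3 siFOXA1 at 1070, 1120 and 1140 CPM. The groups did not overlap, and the means were 326 ± 21.3 and 1110 ± 37 CPM (SD, n = 3), a ratio of 3.4 (log2 fold change 1.75, SE 0.093). In VCaP NSI it was at 44.7, 39.7 and 42.6 CPM, and in VCaP siFOXA1 at 42.5, 48.6 and 43.7 CPM. The VCaP groups overlapped (log2 fold change 0.06, SE 0.072). The VCaP difference minus the PC3 difference was −1.68 (SE 0.13).

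The 7 interferon-related genes read for context (IRF1, IRF7, IRF9, STAT2, ISG15, IFIT1 and MX1) moved with these genes in PC3. All 7 rose in PC3 siFOXA1, with a median log2 fold change of 2.49 against 0.0176 over all genes tested, where 15% of genes rose. Their summed level was 271 to 360 CPM in PC3 NSI and 2310 to 2690 CPM in PC3 siFOXA1. In VCaP, where 22.5% of genes rose and 23.3% fell, 3 of the 7 rose and 2 fell, and the summed level was 66.9 to 75.8 CPM in NSI and 66.3 to 71.3 CPM in siFOXA1. The VCaP change was below the PC3 change for all 7 (edgeR interaction test), against 11% of all genes (22.2% in either direction). This list was chosen with the PC3 results known, so its direction is not independent evidence, and its part in the LGALS9 and LGALS3BP differences was not tested.

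LGALS9 is abundant in immune cells, so markers of those cells were read beside it. The summed level of 5 immune markers was 26.7 to 29.8 CPM in PC3 NSI and 46.3 to 52 CPM in PC3 siFOXA1. In PC3 4 of the 5 rose, where 15% of all genes tested rose. Most of that sum was CD68, a lysosomal protein gene that epithelial lines can also express (28.1 and 47 CPM). The T cell marker CD3E had at most 3 counts summed over the 3 libraries of a PC3 group. The pan-leukocyte marker PTPRC was at 0.0239 CPM in PC3 NSI and 0.11 CPM in PC3 siFOXA1, passing the filter only through siFOXA1. In VCaP, where LGALS9 was at the floor, 1 of the 2 immune markers tested rose, against 22.5% of all genes. That marker was CD14, at 0.686 CPM in NSI and 2.74 CPM in siFOXA1 (log2 fold change 1.97, edgeR adjusted p = 2.07e-05). Markers of other cell types moved in PC3 as well. Of the 4 epithelial markers KRT18, EPCAM and CDH1 fell (log2 fold changes −0.50, −0.42 and −0.66) and KRT8 rose (0.42), and their sum was 406 to 503 CPM in NSI and 385 to 422 CPM in siFOXA1. Of the stromal and endothelial markers ACTA2 and COL1A1 rose (1.69 and 0.62), and the sum of the 4 measured was 20.2 to 23.3 CPM and 32.2 to 35.9 CPM. The part of these markers in the differences of the 6 genes was not tested. In bulk RNA, a change in the number of cells of a type and a change in RNA per cell cannot be told apart.

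**Figure D1:**
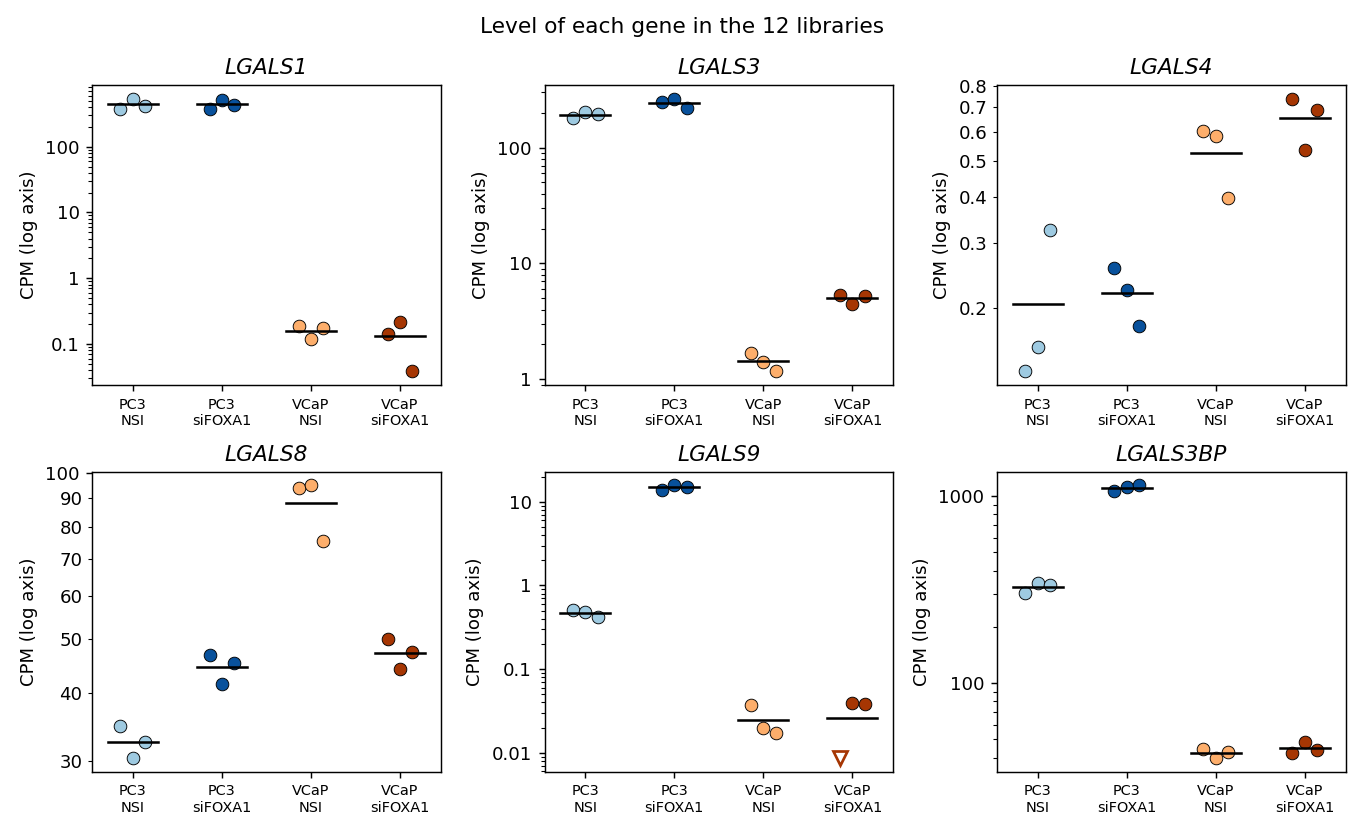
Level of each of the 6 genes in every library, in CPM on a log axis that differs between panels, by line and siRNA. Points are libraries, bars are means of 3, and the hollow triangle marks a library with 0 counts. LGALS9 sits at 0.423 to 0.504 CPM in PC3 NSI and 13.7 to 15.8 CPM in PC3 siFOXA1, and LGALS8 is higher in PC3 siFOXA1 and lower in VCaP siFOXA1.

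LGALS8 encodes galectin-8, which binds glycans on damaged vesicles and there recruits the autophagy receptor CALCOCO2. It lies on chromosome 1, 236681539 to 236716281, plus strand (ENSG00000116977.18_3). In PC3 NSI it was at 34.8, 30.4 and 32.6 CPM, and in PC3 siFOXA1 at 46.9, 41.5 and 45.3 CPM. All 3 siFOXA1 libraries were above the NSI libraries (32.6 ± 2.17 and 44.5 ± 2.76 CPM, log2 fold change 0.44, SE 0.085, n = 3). In VCaP the order was the other way, at 94.1, 95.1 and 75.3 CPM in NSI, against 49.9, 44.2 and 47.5 CPM in siFOXA1. The VCaP siFOXA1 mean was 53.5% of the NSI mean (88.2 ± 11.1 and 47.2 ± 2.88 CPM, log2 fold change −0.93, SE 0.097). With siFOXA1 the lines stood close together (44.5 and 47.2 CPM). The VCaP difference minus the PC3 difference was −1.35 (SE 0.14).

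LGALS8 shares 39.8% of its exon length with genes on the other strand, HEATR1, RP11-385F5.2 and RP11-385F5.4. The PC3 counts ignored strand, so in PC3 reads of LGALS8 and of those genes cannot be told apart where they overlap, while the VCaP counts used strand. HEATR1, a ribosome biogenesis factor gene, was at 43.7 ± 6.8 and 38.2 ± 3.56 CPM in PC3 NSI and siFOXA1 (edgeR adjusted p = 0.239) and at 71.5 ± 4.14 and 76.2 ± 3.74 CPM in VCaP (edgeR adjusted p = 0.476). RP11-385F5.2 moved in the directions of LGALS8 in both lines, rising in PC3 (log2 fold change 0.89, edgeR adjusted p = 0.00828) and falling in VCaP (−1.3, edgeR adjusted p = 3.80e-05). The part of these genes in the LGALS8 values was not tested.

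LGALS3 encodes galectin-3, found in the cytosol, the nucleus and outside the cell. It lies on chromosome 14, 55595762 to 55612121, plus strand (ENSG00000131981.15_2). In VCaP it was at 1.70, 1.43 and 1.17 CPM in NSI, against 5.36, 4.46 and 5.28 CPM in siFOXA1. The VCaP groups did not overlap, and the mean was 3.52 times higher in siFOXA1 (1.43 ± 0.262 and 5.03 ± 0.499 CPM, log2 fold change 1.78, SE 0.16, n = 3). In PC3 it was at 179, 202 and 194 CPM in NSI, against 246, 265 and 219 CPM in siFOXA1. The PC3 groups did not overlap either, though the ratio was only 1.27 (192 ± 11.6 and 243 ± 23 CPM, log2 fold change 0.33, SE 0.11). LGALS3 was thus the only gene of the 6 that was higher in all siFOXA1 libraries of both lines, and the difference was larger in VCaP by 1.47 (SE 0.18) on the log2 scale.

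LGALS1 encodes galectin-1. It lies on chromosome 22, 38071615 to 38075813, plus strand (ENSG00000100097.11_2). In PC3 it was at 376, 540 and 420 CPM in NSI, against 381, 511 and 432 CPM in siFOXA1. The PC3 groups overlapped (446 ± 84.9 and 441 ± 65.4 CPM, log2 fold change −0.03, SE 0.17), and leaving out PC3 siFOXA1 replicate 2 or PC3 NSI replicate 2 gave −0.19 or 0.15. In VCaP it had 10, 6 and 10 counts in NSI and 7, 11 and 2 counts in siFOXA1 and was under the filter on low counts.

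LGALS4 encodes galectin-4, a galectin of the gut epithelium. It lies on chromosome 19, 39292319 to 39304004, minus strand (ENSG00000171747.8_2). In PC3 it was at 0.134, 0.157 and 0.325 CPM in NSI, against 0.257, 0.223 and 0.178 CPM in siFOXA1. In VCaP it was at 0.603, 0.586 and 0.396 CPM in NSI, against 0.74, 0.538 and 0.689 CPM in siFOXA1. The groups overlapped in both lines (log2 fold change 0.07, SE 0.38 in PC3, and 0.29, SE 0.23 in VCaP). The PC3 value depended on single NSI libraries. Without PC3 NSI replicate 3 the log2 fold change was 0.57, and without PC3 NSI replicate 1 it was −0.17.

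All 6 genes passed the filter on low counts in PC3, and 4 of 6 did in VCaP, where LGALS1 and LGALS9 were under it. In PC3 the siFOXA1 and NSI libraries did not overlap for 4 of the 6 genes, LGALS3, LGALS3BP, LGALS8 and LGALS9, all of them higher in siFOXA1. Across all genes tested in PC3, 44.5% did not overlap (24.4% higher and 20.2% lower). In VCaP, LGALS3 was higher and LGALS8 lower without overlap, and 56% of all genes tested did not overlap (30.3% higher and 25.8% lower). Because these contrasts were used to choose the genes, nothing is read from the counts.

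**Figure D2:**
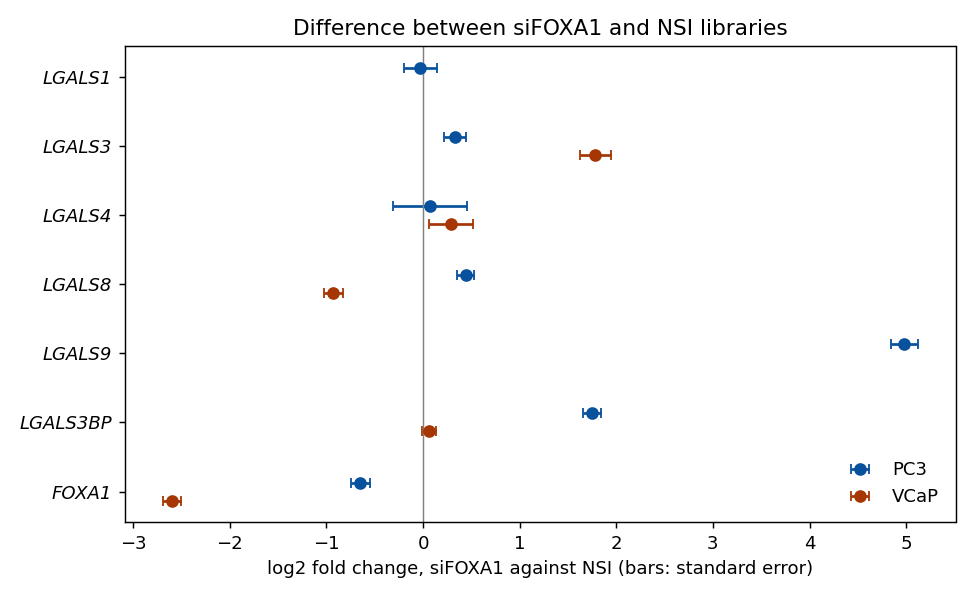
Log2 fold change of siFOXA1 against NSI with its standard error, for the 6 genes and FOXA1, in PC3 and VCaP. LGALS9 stands at 4.98 and LGALS3BP at 1.75 in PC3, LGALS3 at 1.78 in VCaP, and LGALS8 lies on opposite sides of 0. LGALS1 and LGALS9 have no VCaP point because of low counts.

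VCaP NSI was compared with PC3 NSI, a contrast that was not itself used to choose the genes, although its libraries also enter the contrasts that were. LGALS3 and LGALS3BP were lower in VCaP, by −7.07 (SE 0.15, edgeR adjusted p = 2.03e-15) and −2.95 (SE 0.096, edgeR adjusted p = 2.00e-13) on the log2 scale. LGALS8 and LGALS4 were higher in VCaP, by 1.44 (SE 0.10, edgeR adjusted p = 1.98e-09) and 1.33 (SE 0.34, edgeR adjusted p = 0.00175). In this contrast 86.9% of all genes tested were called (42.7% higher in VCaP and 44.2% lower), so these calls are near the background. LGALS1 and LGALS9 were under the filter in VCaP and entered the fit of both lines only through PC3, where they are high, so their differences are given without a test. The fitted log2 difference of LGALS1 was −11.43 (SE 0.27). The normalised counts of LGALS9 summed over the group were 18.9 times higher in PC3 NSI, with a 95% counting interval of 7.26 to 69.8, from 220 against 4 counts. The line cannot be told apart from the dose, the medium, the kit or the strand setting.

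To compare genes with each other, CPM was divided by the exon length in kilobases. In PC3 NSI the order was LGALS1 (796 ± 152 CPM per kb), LGALS3 (135 ± 8.19) and LGALS3BP (127 ± 8.26), then LGALS8 (4.68 ± 0.311), LGALS9 (0.15 ± 0.0134) and LGALS4 (0.134 ± 0.0679). LGALS3 and LGALS3BP overlapped there, as did LGALS9 and LGALS4. In PC3 siFOXA1 LGALS3BP (431 ± 14.3 CPM per kb) stood above LGALS3 (171 ± 16.2), and LGALS9 (4.77 ± 0.337) stood next to LGALS8 (6.4 ± 0.396) and above LGALS4 (0.143 ± 0.0258), with no overlap between neighbours. In VCaP NSI the order was LGALS3BP (16.4 ± 0.97 CPM per kb), LGALS8 (12.7 ± 1.6), LGALS3 (1.01 ± 0.184), LGALS4 (0.344 ± 0.0746) and LGALS1 (0.284 ± 0.0667), the last pair overlapping, with LGALS9 lowest at 0.00797. In VCaP siFOXA1 the order was the same, with LGALS8 at 6.78 ± 0.414 and LGALS3 at 3.55 ± 0.352 CPM per kb.

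The make-up of the galectin transcripts was expressed as each gene's share of the summed CPM per kb of LGALS1, LGALS3, LGALS4, LGALS8 and LGALS9. PC3 was dominated by LGALS1, with a mean share of 84.9% in NSI and 81% in siFOXA1. VCaP was dominated by LGALS8, with 88.5% (87.5% to 89.5%) in NSI and 61.7% (61.4% to 62%) in siFOXA1, while the share of LGALS3 was 7.02% (6.57% to 7.73%) and 32.2% (30.7% to 33.6%). LGALS9 took 0.0164% of the PC3 NSI sum and 0.495% (0.456% to 0.518%) of the PC3 siFOXA1 sum, so even at its highest it was a small part of the galectin transcripts in PC3. The sum itself was 936 ± 159 and 970 ± 126 CPM per kb in PC3 and 14.3 ± 1.81 and 11 ± 0.722 CPM per kb in VCaP.

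**Figure D3:**
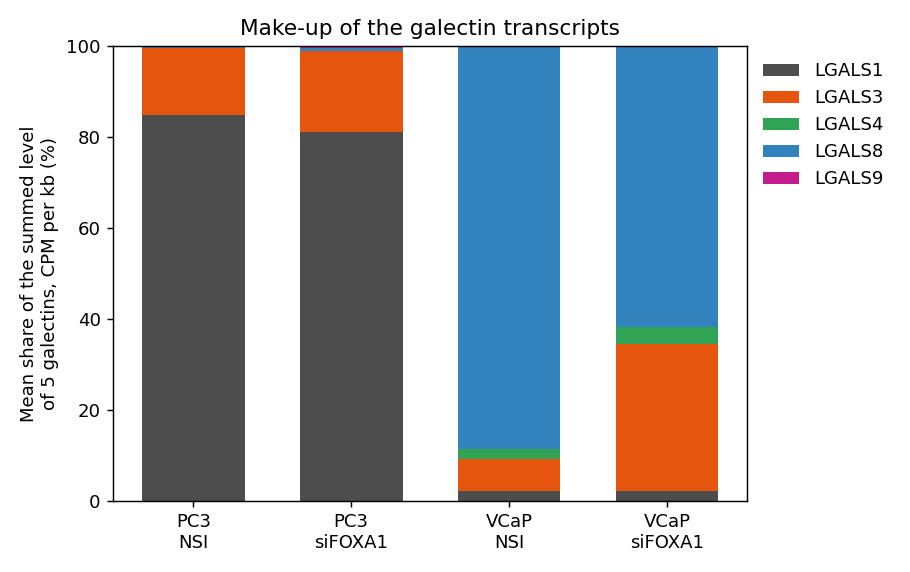
Mean share of LGALS1, LGALS3, LGALS4, LGALS8 and LGALS9 in their summed level per exon length, in percent, for the 4 groups. LGALS1 fills 84.9% of the PC3 NSI bar, LGALS8 fills 88.5% of the VCaP NSI bar and 61.7% of the VCaP siFOXA1 bar, and the LGALS9 share of 0.495% in PC3 siFOXA1 is too thin to see.

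The genes with the most similar profiles were found as those with the smallest root mean square difference in log2(CPM + 0.5), centred per gene, over the 12 libraries, out of 16786 genes averaging 1 CPM or more. The measure mixes the difference between the lines with that between the siRNAs and is given as a description. For LGALS9 they included APOBEC3G, a cytidine deaminase that restricts retroviruses (difference 0.124), EPSTI1 (0.266), HCP5 (0.289) and DDX58, which encodes the RNA sensor RIG-I (0.301). Their log2 fold changes in PC3 were 4.4, 4.03, 3.74 and 3.63. For LGALS3BP they were SRGN, a proteoglycan core protein gene (0.0965), and SPINK13 (0.137), with log2 fold changes of 1.72 and 1.68 in PC3. For LGALS3 they were MYOF (0.224), which encodes the membrane repair protein myoferlin, and MYH15 (0.275). For LGALS8 they were RP11-385F5.2 (0.121), which overlaps it on the other strand, and LHX9 (0.123). For LGALS1 they were RP5-940J5.9 (0.224) and TIMP1 (0.233), a metalloproteinase inhibitor gene, and for LGALS4 they were ARL6 (0.103) and IMPA1 (0.114). The group means of LGALS4 were only 0.205 to 0.656 CPM. At such levels the added 0.5 CPM flattens a profile, so its small differences say little.

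The other galectin genes were mostly silent or near 0, and of the 12 listed 2 passed the filter in each line. LGALSL, which encodes a galectin-like protein, fell in PC3 from 16.1, 15 and 16.5 CPM to 9.57, 6.9 and 8.31 CPM (log2 fold change −0.95, SE 0.12, edgeR adjusted p = 8.88e-04). In VCaP it was at 45.3 ± 1.33 and 48.7 ± 1.04 CPM (log2 fold change 0.07, edgeR adjusted p = 0.292), and the lines differed (VCaP minus PC3 1.05, edgeR adjusted p = 6.57e-05). LGALS12, a galectin of fat cells, had 1, 2 and 1 counts in VCaP NSI and 60, 64 and 66 counts in VCaP siFOXA1, a count ratio of 50.6 (95% counting interval 19.4 to 188). It passed the filter only through VCaP siFOXA1, so no test is read from it. LGALS2 was at 0.59 ± 0.166 and 0.532 ± 0.0443 CPM in PC3 (log2 fold change −0.16, edgeR adjusted p = 0.652) and had 0 counts in all VCaP libraries. Against a floor of 3 counts over the group, its PC3 NSI level was at least 31.8-fold higher than in VCaP NSI. LGALS13 and LGALS16 had 0 counts in every library.

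Genes that work with galectins were read from 4 lists of 69 genes in all, namely enzymes of glycan branching, enzymes of glycan capping, surface binding partners and the response to damaged vesicles. In PC3, 27 of 69 rose and 7 fell, or 49.3% against 27% of all genes tested. In VCaP, 15 of the 60 tested rose and 23 fell, or 63.3% against 45.8% of all genes. The lists were chosen with earlier results of these data known, so these shares are not independent evidence. Nor were the lists matched to all genes by level or gene type. The risers include PTPRC in PC3 and CEACAM1 in VCaP, whose counts were low in NSI. The PC3 count rested partly on single libraries: 17 genes were called without PC3 siFOXA1 replicate 1 and 22 without PC3 siFOXA1 replicate 3. The share of all genes called fell with them, so that 24.6% of the list genes stood against 14.6% of all genes without replicate 1, and 31.9% against 18.8% without replicate 3. Without PC3 NSI replicate 3 the shares were 34.8% and 16.9%. With the replicate number as a block, which the PC3 libraries allow, they were 56.5% and 42.7%, a smaller gap in percentage points. The median log2 fold change was 0.18 in PC3 and −0.07 in VCaP, against 0.0176 and 0.023 over all genes. In the test of the difference between the lines, 28 of 68 genes were lower in VCaP than in PC3 and 10 were higher (55.9% called, against 22.2% of all genes).

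Among 17 branching enzymes, which build the antennae that galectins bind, 7 rose and 2 fell in PC3, and in VCaP 2 of the 15 tested rose and 7 fell (52.9% called in PC3 against 27% of all genes, and 60% in VCaP against 45.8%). In PC3 GCNT2, the I-branching enzyme, rose from 9.2 ± 0.916 to 19 ± 2.72 CPM (log2 fold change 1.03, edgeR adjusted p = 6.02e-04). B4GALT1, which adds galactose, rose by 0.71 (edgeR adjusted p = 0.00374). MGAT5, which starts the branch that galectin-3 favours, fell by 0.55 and B4GALT2 fell by 0.42 (edgeR adjusted p = 0.0131 and 0.0201). MGAT5 was lower in VCaP siFOXA1 too (log2 fold change −0.52, edgeR adjusted p = 4.52e-04). In VCaP MGAT4B fell by 0.60 and B4GALT2 by 0.82 (edgeR adjusted p = 3.67e-05 and 1.37e-04), and B4GALT4 and MGAT1 rose by 0.3 and 0.21 (edgeR adjusted p = 0.0191 and 0.0206). The PC3 count was 5 in place of 9 without PC3 siFOXA1 replicate 1. Without that library the B4GALT2 call in PC3 was lost too (edgeR adjusted p = 0.0852, range over all alternatives 9.55e-04 to 0.0852). The calls of B4GALT4 and MGAT1 in VCaP were each lost without VCaP NSI replicate 1, siFOXA1 replicate 1 or siFOXA1 replicate 2, B4GALT4 also without NSI replicate 3 and with library size alone, and MGAT1 also without NSI replicate 2.

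Among 11 capping genes, whose sialic acid and fucose can block or shape galectin binding, 5 rose and 3 fell in PC3. In VCaP 3 of the 9 tested rose and 2 fell. The called share was 72.7% in PC3 against 27% of all genes, and 55.6% in VCaP against 45.8%. ST3GAL1, a sialyltransferase that caps O-glycans, went in opposite directions, falling from 1160 ± 159 to 599 ± 70 CPM in PC3 (log2 fold change −0.96, edgeR adjusted p = 7.38e-04) and rising from 26.4 ± 3.48 to 197 ± 18.3 CPM in VCaP (2.87, edgeR adjusted p = 2.47e-07). In PC3 ST3GAL6 rose by 0.73 and FUT8, the core fucosyltransferase, by 0.44, and FUT1 fell by 0.62 (edgeR adjusted p = 0.00385, 0.00895 and 0.00645). In VCaP ST6GAL1, whose α2,6-linked sialic acid blocks galectin-1, rose by 1.5, and ST3GAL4 and FUT1 fell by 0.69 and 0.55 (edgeR adjusted p = 9.05e-06, 1.03e-04 and 9.10e-04). The PC3 count was 4 in place of 8 when NSI replicate 3, siFOXA1 replicate 1 or siFOXA1 replicate 3 was left out. FUT8 lost its call without siFOXA1 replicate 1 or 3 (edgeR adjusted p = 0.0528 and 0.0514, range over all alternatives 3.68e-04 to 0.0528).

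Of 23 binding partners, 10 rose and 1 fell in PC3 (47.8% called against 27% of all genes). In VCaP 3 of the 18 tested rose and 8 fell (61.1% called against 45.8%). The PC3 risers include PTPRC, which passed the filter only through siFOXA1. The VCaP risers include CEACAM1, at 19, 7 and 16 counts in NSI and 79, 85 and 83 counts in siFOXA1. No direction is read from either of those calls. In PC3 the adhesion receptor CEACAM1 rose from 8.21 ± 1.23 to 27.7 ± 3.68 CPM (log2 fold change 1.74, edgeR adjusted p = 5.52e-05) and the mucin MUC1 from 4.94 ± 0.404 to 15.8 ± 3.77 CPM (1.67, edgeR adjusted p = 3.94e-04). The transferrin receptor TFRC fell by 0.38 (edgeR adjusted p = 0.0366), a call lost when any of the PC3 libraries other than NSI replicate 2 was left out, and under upper-quartile or library-size scaling. In VCaP the hyaluronan receptor CD44, which galectin-9 binds, rose from 5.28 ± 0.767 to 24 ± 0.782 CPM (log2 fold change 2.15, edgeR adjusted p = 5.18e-07). CD47 rose by 0.67 in VCaP (edgeR adjusted p = 5.30e-05), and also by 0.67 in PC3 (edgeR adjusted p = 0.0021). P4HB, a disulfide isomerase that galectin-9 binds at the cell surface, and ALCAM fell in VCaP by 0.83 and 0.79 (edgeR adjusted p = 1.23e-04 and 1.51e-04). The PC3 count was 5 in place of 11 without siFOXA1 replicate 1 and 7 without siFOXA1 replicate 3.

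Of 18 genes listed for the handling of damaged vesicles, 5 rose and 1 fell in PC3, where 33.3% called is near the 27% of all genes, and 7 rose and 6 fell in VCaP (72.2% against 45.8%). In PC3 the autophagy receptor OPTN rose from 29.8 ± 0.97 to 68.7 ± 1.49 CPM (log2 fold change 1.2, edgeR adjusted p = 2.65e-05). FBXO27, a glycoprotein-binding ubiquitin ligase subunit, rose by 0.95 and the AMPK subunit PRKAA1 fell by 0.78 (edgeR adjusted p = 1.44e-04 and 0.00301). OPTN rose in VCaP too (log2 fold change 0.6, edgeR adjusted p = 0.00118). In VCaP TRIM16, which binds galectin-3 at damaged vesicles, rose by 0.59 and TFEB, a regulator of lysosomal genes, by 0.57, while ATG16L1 and NBR1, both in autophagy, each fell by 0.55 (edgeR adjusted p = 2.25e-04, 3.81e-04, 5.86e-05 and 1.08e-04). The PC3 count was 3 in place of 6 without siFOXA1 replicate 1.

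**Figure D4:**
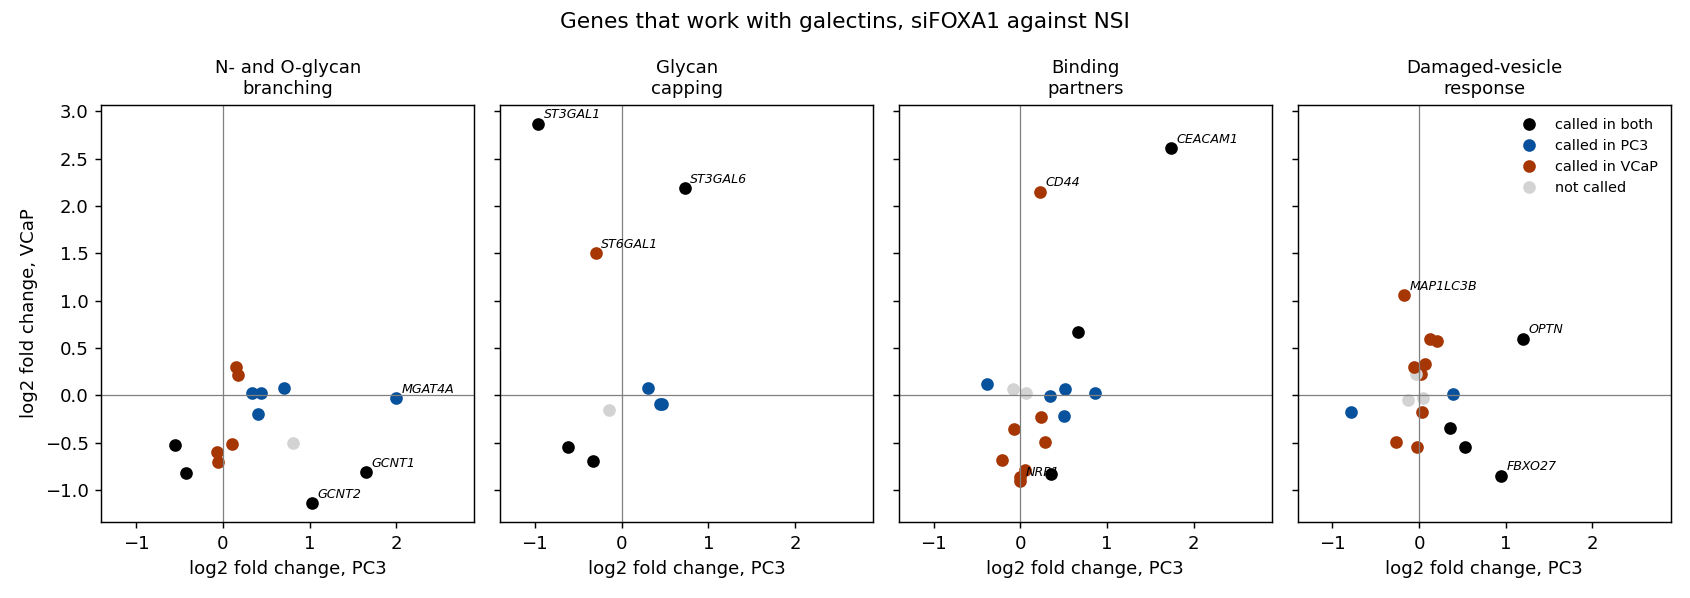
Log2 fold change of siFOXA1 against NSI in PC3 (horizontal axis) and VCaP (vertical axis) for the genes of the 4 lists tested in both lines, coloured by the lines in which they passed an adjusted p of 0.05. ST3GAL1 lies at −0.96 in PC3 and 2.87 in VCaP, CD44 at 2.15 in VCaP, and GCNT2 at 1.03 in PC3 and below 0 in VCaP.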

How the data were processed

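Gene counts of 12 libraries of PC3 and VCaP were used, 1 table per library. Per the submitters' processing notes, STAR 2.7.3a and Subread 2.0.0 were used on GRCh37. Per the file headers, the authors made the deposited expected counts with featureCounts from the GENCODE v28lift37 basic annotation, with fragments of several places or genes shared out in fractions. Per the file headers, PC3 counts ignored strand and VCaP counts used reverse-strand counting. Between 54.8% and 75.2% of the nonzero values were not whole, and all were rounded to whole numbers here.

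Each line was fitted on its 6 libraries with edgeR 4.0.16 in R 4.3.3 (TMM factors, filterByExpr, two-sided quasi-likelihood test, Benjamini-Hochberg adjustment over all genes tested, called at an adjusted p under 0.05). A fit of all 12 libraries gave the difference between the lines and VCaP NSI against PC3 NSI. The SE is the size of the log2 fold change divided by the square root of F. CPM uses the TMM factors of the 12 libraries. Between replicates, the biological coefficient of variation came to 15% (PC3) and 9.9% (VCaP).

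The members and lists were chosen with earlier results of these data known. From each list the named genes are the 2 rising and 2 falling calls with the smallest adjusted p per line, at a mean of at least 5 CPM and with no overlap between groups. A gene named for a line may also have been called in the other line. Replicates were compared before averaging, and the chi-square per degree of freedom within a group was 9.8 to 141, so none was a copy. In PC3, deviations from the group means of same-numbered libraries correlated across genes (0.67, 0.73 and 0.31). The numbers in the titles were therefore taken to pair the PC3 libraries, although replicate 3 did not match its own number best both ways. The main fits did not use this pairing, and the replicate block was only an alternative. The alternatives were other scalings, no filter on low counts, DESeq2 1.42.0, a replicate block, a joint fit and leaving out each replicate. Sequences were matched by symbol to RefSeq promoters on GRCh38.p14. Some genes that the lists or the naming rule held are not reported here.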

Additional observations from a re-analysis of the deposited data

Results flagged for a closer look

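The siFOXA1 effect was compared between the lines for FOXA1, LGALSL, LGALS12, LGALS17A and the genes named from the 4 pathway lists. Of these, 23 passed an adjusted p of 0.05. That number includes LGALS12, LGALS17A and CEACAM1, whose tests are not read. The edgeR interaction test with Benjamini-Hochberg adjustment was used, and values are the VCaP log2 change minus the PC3 log2 change. Over all genes tested 22.2% differed, as did 38 of 68 genes of the 4 pathway lists. The pathway genes were named for a small adjusted p within a line, so 23 is not compared with those shares. The line cannot be told apart from the dose, the medium, the kit, the strand setting or the remaining share of FOXA1. FOXA1 differed by −1.93 (adjusted p = 3.12e-07). Of the galectin family, LGALSL differed by 1.05 (adjusted p = 6.57e-05) and the pseudogene LGALS17A by −2.27. LGALS17A was chosen after its values were seen, so its test is not read. LGALS12 differed by 5.93, but it passed the filter only through VCaP siFOXA1, so its test is not read, and with 1, 2 and 1 counts in VCaP NSI the value is no bound.

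Of the branching enzymes, GCNT2 differed by −2.15 (adjusted p = 2.79e-06), B4GALT1 by −0.61 (0.0129) and MGAT4B by −0.51 (0.00389). Of the capping genes, ST3GAL1 differed by 3.86 (5.10e-09), ST6GAL1 by 1.82 (1.67e-05), ST3GAL6 by 1.48 (3.22e-05), FUT8 by −0.51 (0.0201) and ST3GAL4 by −0.34 (0.0353). Of the binding partners, CD44 differed by 1.94 (2.69e-07), P4HB by −1.15 (2.95e-05), ALCAM by −0.81 (0.00205) and TFRC by 0.52 (0.0289). CEACAM1 differed by 0.89, but it had only 19, 7 and 16 counts in VCaP NSI, so its test is not read. Of the damaged-vesicle genes, FBXO27 differed by −1.79 (4.66e-07), ATG16L1 by −1.06 (1.58e-04), PRKAA1 by 0.62 (0.012), OPTN by −0.57 (0.00469), NBR1 by −0.51 (0.00556) and TRIM16 by 0.49 (0.0132).

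LGALS8 was higher in all 3 siFOXA1 libraries of PC3 and lower in all 3 of VCaP, a difference of −1.35. That difference was not tested, because the contrast was used to choose the gene.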

How the results depend on the processing

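Of the alternatives to the values of the 6 genes, to FOXA1 and to the counts of pathway genes, 390 kept the direction and the side of the threshold, or stayed within the spread, and 2 moved. Those were counts of pathway genes in PC3, 17 without siFOXA1 replicate 1 and 22 without siFOXA1 replicate 3, against 34 with all libraries (17 to 34 over the libraries left out, and 33 to 39 in VCaP against 38). Over the libraries left out, the log2 fold change of LGALS9 in PC3 ranged from 4.89 to 5.04, LGALS3BP in PC3 from 1.69 to 1.81, LGALS3 in VCaP from 1.65 to 1.91, and LGALS8 from 0.40 to 0.47 in PC3 and −1.04 to −0.88 in VCaP. Among single genes and single lists, 710 alternatives stayed the same, 22 calls were lost, 7 list counts moved and 1 reversed: LGALS2 in PC3, not called, was 0.08 without PC3 NSI replicate 1 (−0.28 to 0.08 over the libraries left out). With the replicate block, 39 pathway genes were called in PC3 and 40 in VCaP, no call of a named gene changed, and calls over all genes in PC3 were 11297 against 7149 (42.7% and 27%). In VCaP the same-numbered libraries did not all deviate together (correlations 0.16, −0.06 and 0.38), so there the samples share only a number. Depth limits LGALS9 and LGALS1 in VCaP, and LGALS4 rests on 20 to 60 counts per library.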

Other observations

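LGALS17A, a pseudogene of the galectin family on chromosome 19 (40170014 to 40177013, plus strand, GRCh37), was outside the lists and was chosen after its values were seen. Its differences are therefore given without a test. In PC3 it was at 0.363, 0.221 and 0.287 CPM in NSI, against 6.94, 6.89 and 6 CPM in siFOXA1 (log2 fold change 4.49, SE 0.19). In VCaP it was at 0.98, 1.31 and 1.07 CPM in NSI, against 5.12, 4.44 and 6.11 CPM in siFOXA1 (log2 fold change 2.19, SE 0.17). It shares 6.81% of its exon length with AC093063.3 on the same strand.

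For each of the 6 genes, the nearest protein-coding gene on each side that did not overlap it was read. These were 12 neighbours in all, of which 10 were tested in each line. The overlapping protein-coding genes HEATR1 and AC015688.3 are given above. In PC3, KSR1 rose, and PDXP (log2 fold change −0.68), DLGAP5 (−0.90) and CANT1 (−0.40, a call lost without PC3 NSI replicate 3) fell. NOS2, at 0.00585 CPM in PC3 NSI and 0.0742 CPM in PC3 siFOXA1, passed the filter only through siFOXA1, so no test is read from it. In VCaP, KSR1 and TIMP2 (1.30) rose, and MAPK1IP1L (−0.31), DLGAP5 (−0.98), ECH1 (−0.39), EDARADD and ACTN2 fell. With NOS2 counted, 2 of the 10 rose and 3 fell in PC3, and 2 of the 10 rose and 5 fell in VCaP. The share of all genes called was 27% in PC3 and 45.8% in VCaP. DLGAP5, beside LGALS3, thus fell in both lines, where LGALS3 was higher.

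Among neighbours of LGALS9, KSR1, a scaffold gene of the Ras pathway that lies 3360 bases away, rose from 3.65 ± 0.193 to 5.96 ± 0.773 CPM in PC3 (log2 fold change 0.70, SE 0.12, edgeR adjusted p = 0.00413). It also rose in VCaP from 1.05 ± 0.0501 to 1.53 ± 0.0484 CPM (0.52, SE 0.14, edgeR adjusted p = 0.0126), a call lost with DESeq2 (adjusted p = 0.0701) and without VCaP siFOXA1 replicate 2 (edgeR adjusted p = 0.0529, range over all alternatives 0.00819 to 0.0701). Among neighbours of LGALS8, EDARADD, an adaptor of ectodysplasin signalling 33325 bases away, fell in VCaP from 8.71 to 4.19 CPM (log2 fold change −1.09, SE 0.14, edgeR adjusted p = 2.19e-04). In PC3, where LGALS8 was higher, EDARADD had a log2 fold change of −0.28 (edgeR adjusted p = 0.368). ACTN2, 133473 bases away, fell in VCaP from 2.03 to 1.1 CPM (−0.92, SE 0.18, edgeR adjusted p = 0.00223).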
